A study of Arabidopsis thaliana with 12 samples.

Results

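In the Arabidopsis thaliana psan mutant, 64 genes had expression ranks on every psan array above their highest rank on any wild type (WT) array. They were chosen by that pattern. Within each array all 3439 probes were ranked by intensity, with ties averaged, and a probe was kept when its lowest rank in psan exceeded its highest rank in WT, its mean psan intensity was at least 0.1 and it carried 1 gene symbol. Of the 692 probes with 1 symbol, 71 met the rank condition, of which 7 were set aside by the rule and 0 fell under the intensity limit. Because this contrast chose the genes, the differences between psan and WT below are descriptions of the chosen values, and no test of psan against WT is given for any of them.

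The series held 12 arrays of total RNA, 6 of WT and 6 of psan, both of ecotype Columbia 0. The psan mutant is without PSI-N, the product of the nuclear gene PSAN and a subunit of photosystem I. The sources used here do not give the tissue, age or growth of the plants, the kind of mutant allele, or how the numbered samples were obtained. Values are intensities on a linear scale in arbitrary units, on which array maxima lay at about 100 and 161 to 521 probes per array were listed at exactly 0. The number of arrays limits the precision, and nothing says that the arrays came from separate plants, so the spread between them may be technical. Markers of green leaf, root, seed and pollen had 0 members measured through a probe with 1 symbol, so the tissue was not checked.

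Photosystem I is the thylakoid complex that uses light to pass electrons from plastocyanin to ferredoxin, and PSI-N sits on its lumenal side, near the site where plastocyanin docks. Most chloroplast proteins are encoded in the nucleus, made in the cytosol and imported. Nuclear transcripts are known to respond to the redox state of photosynthetic electron transport, a form of signalling from organelle to nucleus. Roles are given below as background for each locus. They were grouped after the genes were known, and no share of these roles among the other probes was computed.

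PSAN had intensities of 4.40 to 7.77 in WT, with a median of 6.16, and of 0.0681 to 0.243 in psan, with a median of 0.183. The 2 groups did not overlap. Within a genotype, deviations from the group mean correlated between samples 1 and 2, 3 and 4, and 5 and 6, with r from 0.0331, for psan 1 and 2, to 0.601, for WT 1 and 2, over 2243 probes above 0 on all arrays. Whether such pairs are repeat measurements of 1 sample is not stated. WT arrays 1 and 2 stood apart from the other WT arrays, and psan arrays 3 and 4 from the other psan arrays. Without WT arrays 1 and 2 the same rule kept 85 genes, and 12.7% of all probes met the rank condition. Without psan arrays 3 and 4 the rule kept 90 genes, and 12.6% of all probes met the rank condition. With all arrays that share was 8.9%. Both sets held all 64, as leaving arrays out cannot narrow a rank gap when ranks are taken within each array. That all 64 stayed is therefore no check on these arrays.

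Among all probes, 8.9% met the rank condition, and among probes with 1 symbol 10.3% did, against 9.08% of probes with several symbols and 8.31% of unnamed probes. In limma fitted over all probes, 14.4% of those tested were higher in psan at an adjusted p under 0.05, and 15.7%, 16.7% and 12.8% of those with 1, several and no symbols. All 64 genes were among the probes called higher in that fit, which follows from their choice on the same contrast. With the arrays of a pair averaged, 83 of all probes were called higher, 12 of the 64 among them. With the pair as a random block these counts were 273 and 48. The counts among the 64 again come from the contrast that chose them. Over the averaged pairs, 16.4% of all probes met the rank condition. After quantile normalisation the log2 fold change, psan minus WT, had a median of 1.51 over the 64 genes, or 2.85-fold, and ran from 0.63 to 5.5. The median over all probes with a fold change was -0.015. On the values as deposited the medians were 2.03 and 0.46. Of the 64 genes, 52 had a log2 fold change over 1 and 16 over 2.

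**Figure D1:**
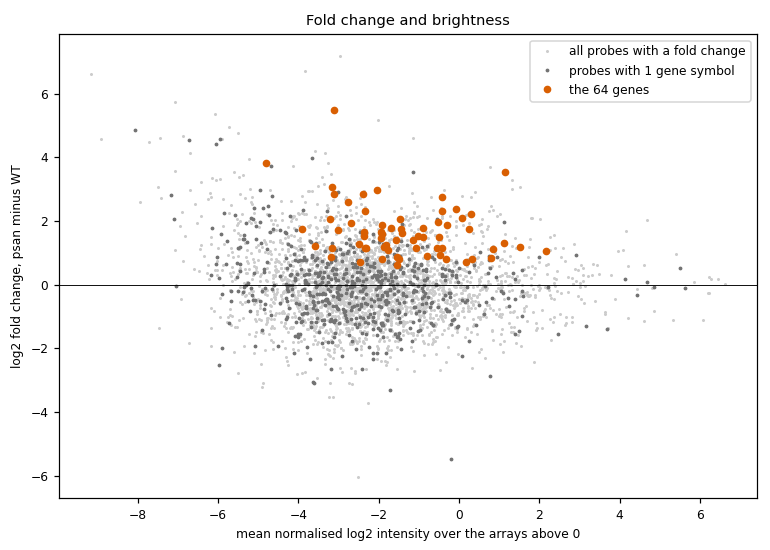
Log2 fold change, psan minus WT, against the mean normalised log2 intensity of each probe, for all probes with a fold change, probes with 1 gene symbol, and the 64 genes. The 64 genes spread over the brightness range with log2 fold changes from 0.63 to 5.5.

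The fold change of all probes varied along the probe number in a pattern that repeated at a fixed period. In 24 bins of 12 numbers within that period, the median over all probes ran from -0.75 to 0.58. Of the 64 genes, 55 lay in the 13 bins with a median above 0, or 85.9%, as did 415 of the 692 probes with 1 symbol. The 4 bins with the lowest medians held 0 of the 64 and 98 of the 692 probes with 1 symbol, and the 4 with the highest held 22 and 139. Each of the 64 lay above the median of its own bin, by 0.21 or more on the log2 scale, with a median of 1.14. The genes were chosen as higher in psan, and the lowest of their log2 fold changes, 0.63, exceeded the highest bin median. Their place above the bin medians thus follows from that choice. After these effects were removed from each array, 34 of the 64 still met the rank condition, and the median log2 fold change over all 64 was 1.16. Of all probes, 7.44% met the rank condition after the removal, against 8.9% before it. The part of the probe number in the choice of these genes was not tested further.

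**Figure D2:**
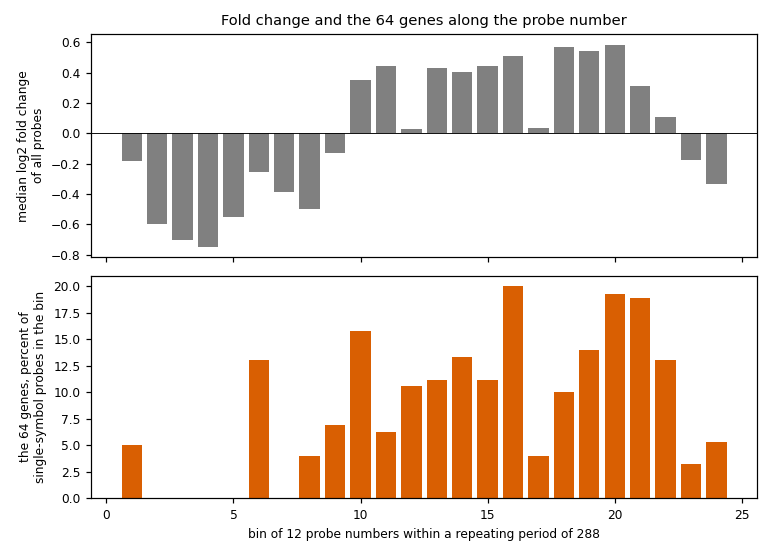
Upper bars give the median log2 fold change of all probes in each of 24 bins of 12 probe numbers within the set period. Lower bars give the 64 genes as a percent of the probes with 1 symbol in the bin, and 0 of the 64 lie in the 4 bins with the lowest medians.

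The genes were of middle rank in WT and of upper rank in psan. Their median rank percentile, where 100 is the brightest probe of an array, lay between 44.9 and 56.7 on the WT arrays and between 75.3 and 81.1 on the psan arrays. For all probes with 1 symbol these medians lay between 45.4 and 47.2 on the 12 arrays. On WT arrays 1 and 2 the genes had medians of 44.9 and 45.5, and on WT arrays 3 to 6 of 53.4 to 56.7. A psan median over the 90th percentile was found for 15 genes, of which 3 were also over it in WT. Of the 64, 49 were above 0 on all 12 arrays. The other 15 were listed at 0 on 1 to 4 WT arrays, always including WT array 1 or 2, and none was at 0 on a psan array. Zeros were left out of the fit, so for these 15 the fold change rests on fewer WT arrays. With an offset added and zeros kept, the median over the 15 was 3.71 in place of 1.95.

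**Figure D3:**
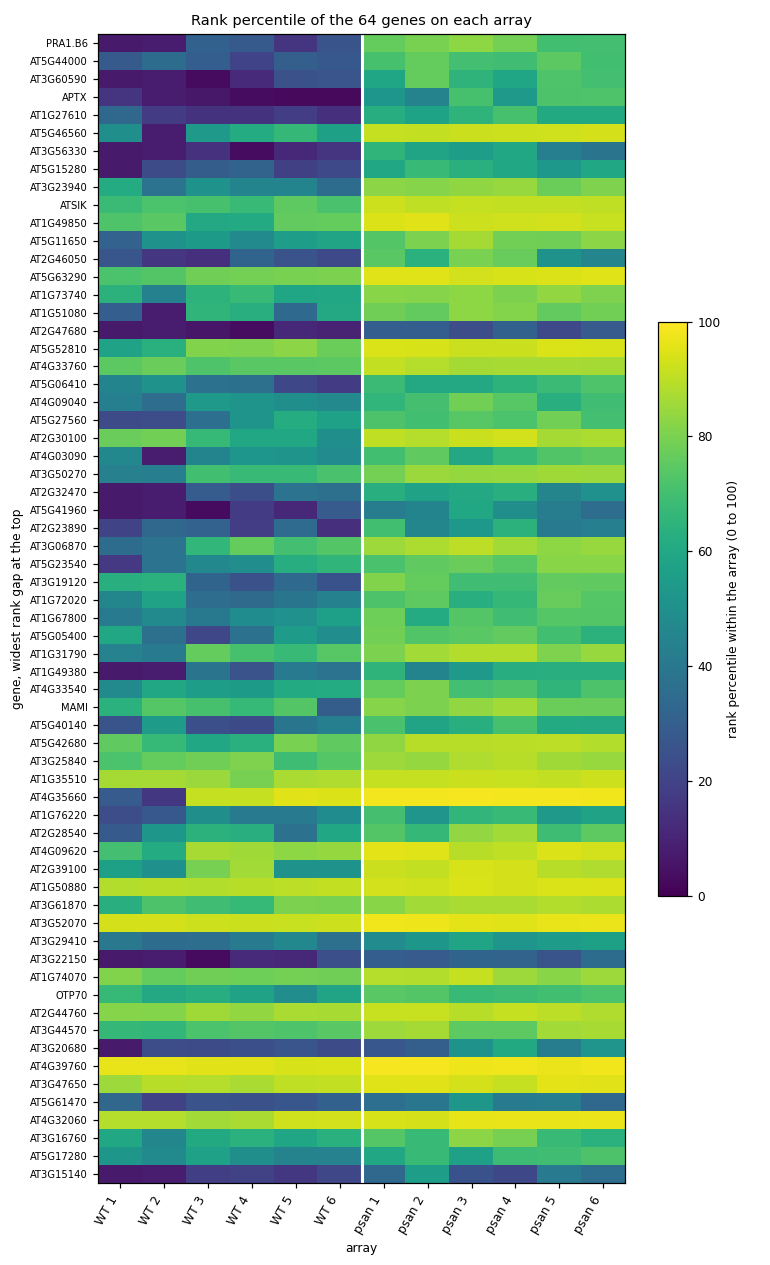
Rank percentile within each array, 0 to 100, of the 64 genes (rows, widest gap between lowest psan and highest WT rank at the top) on 6 WT and 6 psan arrays (columns). Array medians over the genes lie between 44.9 and 56.7 in WT and between 75.3 and 81.1 in psan.

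The genes with a role in RNA of the organelles and in translation numbered 9, with log2 fold changes from 0.63 to 3.08. Pentatricopeptide repeat (PPR) proteins, which bind RNA in chloroplasts and mitochondria and act in its editing, splicing and stability, made up most of them. The PPR gene AT5G15280 had intensities of 0 to 0.0925 in WT, with a median of 0.0627, and of 0.275 to 0.445 in psan, with a median of 0.344. The log2 fold change was 1.95 ± 0.23 (SE, n = 6 psan and 5 WT arrays above 0), or 2.59 as deposited and 2.65 with zeros kept. The PPR gene AT2G46050 had 0.00119 to 0.0941 in WT, with a median of 0.0502, and 0.210 to 0.671 in psan, with a median of 0.489. The groups did not overlap, and the log2 fold change was 2.58 ± 0.42 (SE), or 3.81 as deposited. Its psan arrays differed by pair, with means of 0.491 for 1 and 2, 0.621 for 3 and 4 and 0.236 for 5 and 6.

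AT3G56330, which encodes a tRNA methyltransferase of the guanosine dimethylating type, was listed at 0 on 3 WT arrays and reached 0.0444 on the others. In psan it lay between 0.166 and 0.416, with a median of 0.298. The difference, a log2 fold change of 3.08 ± 0.37 (SE), rests on the 3 WT arrays above 0, and was 2.34 with the probe number corrected, 2.38 with median centring and 5.26 with zeros kept and an offset added. AT4G09620 belongs to the mTERF family, whose members act in organelle transcription and RNA processing. It went from 0.162 to 1.01 in WT, with a median of 0.856, and from 1.31 to 3.44 in psan, with a median of 2.54. Psan arrays 3 and 4 were low for this gene, with a mean of 1.38 against 3.18 for arrays 1 and 2.

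AT3G22150, another PPR gene, was the second dimmest of the 64 by mean psan intensity. It was at 0 on 3 WT arrays and at most 0.0744 on the others, against 0.102 to 0.147 in psan with a median of 0.124. The log2 fold change of 1.74 was 2.49 without WT array 6, 1.12 with cyclic loess, 4.0 with zeros kept and 0.92 with the probe number corrected, where the gene no longer met the rank condition. AT2G30100 and AT1G31790, also PPR genes, had log2 fold changes of 1.97 and 1.5. Neither met the rank condition with the probe number corrected, where AT2G30100 had 1.22. AT4G33760, an aminoacyl-tRNA synthetase gene, had 1.15. OTP70, a PPR protein known to be needed for splicing of the chloroplast rpoC1 transcript, had the lowest value of the 64, 0.63 ± 0.18 (SE). Its WT intensities of 0.154 to 0.280 lay below the psan intensities of 0.411 to 0.572, which was in part fixed by the rule. The log2 fold change of OTP70 as deposited was 1.15.

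Other proteins of chloroplasts and mitochondria numbered 5, of which 4 are known for protein folding, assembly or maturation. AT3G47650, which encodes a zinc-binding DnaJ-type protein that acts as a chaperone in the assembly of Rubisco, had 0.697 to 1.53 in WT, with a median of 1.14, and 1.57 to 3.27 in psan, with a median of 3.09. Psan array 4, the lowest of its group, lay just above the highest WT array. The log2 fold change was 1.12 ± 0.23 (SE). AT4G32060, a gene for a mitochondrial calcium uptake protein with EF hands, had 0.963 to 2.15 in WT, with a median of 1.05, and 2.27 to 4.49 in psan, with a median of 3.53. In both genotypes samples 5 and 6 were the highest, with pair means of 2.1 in WT and 4.44 in psan. On the log2 scale its fold change of 1.32 ± 0.28 (SE) was 0.71 with median centring.

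The remaining 3 of this group had wider rank gaps, of 321, 143 and 38 ranks against 17 for AT3G47650 and 10 for AT4G32060. AT5G06410, a J-domain cochaperone of iron-sulphur cluster assembly, had a log2 fold change of 1.67 ± 0.36 (SE), between medians of 0.0919 and 0.402. AT1G49380, which acts in the attachment of haem to cytochrome c type proteins in the thylakoid, was at 0 on WT arrays 1 and 2, and its log2 fold change of 1.16 was 0.40 with the probe number corrected and 2.74 with zeros kept. AT1G74070, a cyclophilin gene, had 0.80, or 0.11 with the probe number corrected. None of the 5 met the rank condition after that correction.

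Of 11 genes for enzymes of metabolism, the widest separation was that of AT5G44000, a glutathione S-transferase family gene. It had 0.0341 to 0.104 in WT, with a median of 0.0690, and 0.431 to 0.632 in psan, with a median of 0.489. Its log2 fold change was 2.32 ± 0.20 (SE), or 2.98 as deposited, and its highest WT rank lay at the 35.2 percentile against 69.4 for its lowest psan rank. AT3G23940 encodes dihydroxyacid dehydratase, an iron-sulphur enzyme of branched-chain amino acid synthesis in plastids. Its intensities were 0.0570 to 0.187 in WT, with a median of 0.160, and 0.633 to 0.884 in psan, with a median of 0.820, a log2 fold change of 2.06 ± 0.23 (SE).

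AT5G63290, a radical SAM protein gene related to the bacterial oxygen-independent coproporphyrinogen oxidase of haem synthesis, had 0.281 to 0.705 in WT, with a median of 0.616, and 2.05 to 3.06 in psan, with a median of 2.92. The log2 fold change was 2.23 ± 0.18 (SE), and the groups were far apart on every array. AT5G52810, an ornithine cyclodeaminase family gene known for a step of pipecolic acid synthesis in plant immunity, had 0.140 to 0.818 in WT, with a median of 0.635, and 1.70 to 2.67 in psan, with a median of 2.46. WT arrays 1 and 2 were the lowest of its group and psan arrays 3 and 4 the lowest of theirs.

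AT5G11650, an alpha/beta hydrolase family gene, had a median of 0.188 in WT, between 0.0426 and 0.248, and of 0.703 in psan, between 0.549 and 1.0. Here the log2 fold change of 1.74 ± 0.26 (SE) was 1.04 with the probe number corrected and 2.33 as deposited. AT1G73740, a UDP-glycosyltransferase family gene, had a median of 0.256 in WT, between 0.0734 and 0.349, and of 0.802 in psan, between 0.677 and 0.920. The other 5 enzyme genes had log2 fold changes from 0.72, for the terpene synthase family gene AT3G29410, to 1.71, for the nucleotidase family gene AT2G23890. AT3G50270, an acyltransferase family gene, had 1.53, AT4G33540, of the metallo-beta-lactamase fold, had 0.88, and AT1G35510, an O-fucosyltransferase family gene, had 0.81. A further probe that lists AT1G35510 among 3 genes had the opposite sign, with -0.91 ± 0.26 (SE). Its mean was 2.55 ± 0.350 (SD, n = 6) over the WT arrays and 1.56 ± 0.621 (SD, n = 6) over the psan arrays.

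**Figure D4:**
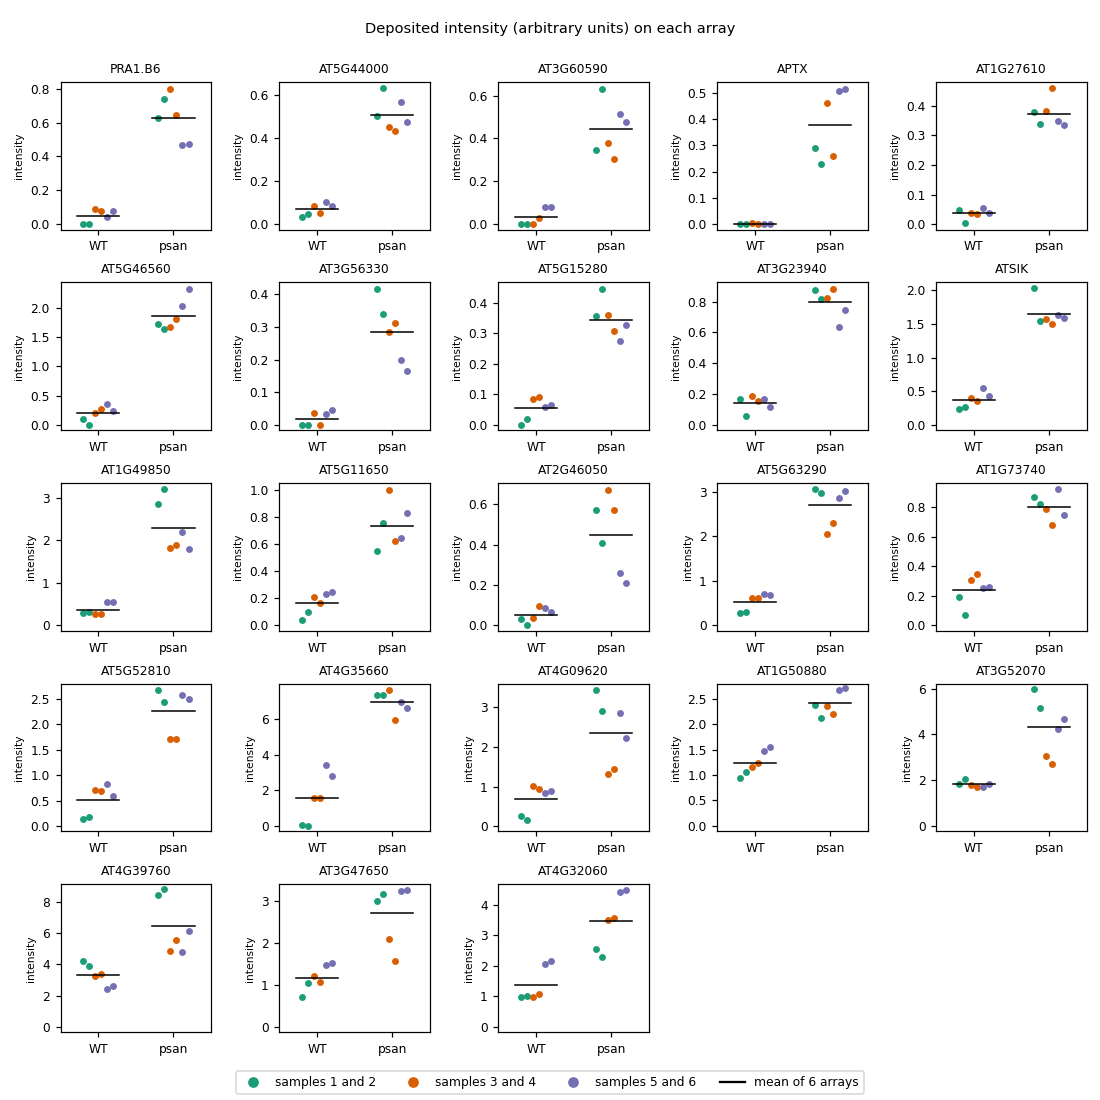
Deposited intensity on each array, in arbitrary units from 0 on a linear axis of its own for each gene, for the genes with the 15 widest rank gaps or the 10 highest psan means. Points are coloured by sample numbers 1 and 2, 3 and 4, or 5 and 6, black lines are means of 6 arrays, and in each panel all psan points lie above all WT points.

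Genes of ubiquitin-dependent protein turnover numbered 6, with log2 fold changes from 1.06 to 2.36. AT1G49850, which encodes a RING-type protein, had 0.257 to 0.555 in WT, with a median of 0.304, and 1.79 to 3.20 in psan, with a median of 2.03. Psan arrays 1 and 2 were the highest, with a mean of 3.02 against 1.86 and 1.98 for the other pairs. AT4G39760, an F-box and kelch repeat gene, was the second brightest of the 64 in psan, with 4.83 to 8.84 and a median of 5.89, against 2.45 to 4.22 and a median of 3.31 in WT. For this gene the log2 fold change of 1.06 ± 0.23 (SE) was 0.28 with median centring. AT5G23540, a gene for the deubiquitinating subunit of the proteasome lid, had 1.78 ± 0.44 (SE), between medians of 0.167 and 0.605, or 1.18 without WT arrays 1 and 2. The RING gene AT2G39100 had 2.30, the U-box gene AT5G40140 had 1.54, or 0.94 with the probe number corrected, and the copine family gene AT1G67800 had 1.25.

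Signalling and membrane traffic held 4 genes. PRA1.B6, a prenylated Rab acceptor of the family that sorts small GTPases to membranes, had the widest rank gap of the 64. It was at 0 on WT arrays 1 and 2 and reached at most 0.0900 in WT, with a median of 0.0607, while psan lay between 0.467 and 0.801 with a median of 0.637. The log2 fold change was 2.98 ± 0.35 (SE) over the 4 WT arrays above 0, or 2.26 with the probe number corrected and 4.29 with zeros kept. PRA1.B3, a relative that is not among the 64, was looked up after these values were seen. It was also at 0 on WT arrays 1 and 2, and had a log2 fold change of -0.07 ± 0.43 (SE). That value was -0.66 with the probe number corrected, 0.15 as deposited and 1.35 with zeros kept, so its sign depends on the processing. Its deposited medians were 0.0724 in WT and 0.129 in psan. ATSIK, a protein kinase gene, had 0.231 to 0.540 in WT, with a median of 0.378, and 1.51 to 2.03 in psan, with a median of 1.58, a log2 fold change of 1.86 ± 0.16 (SE). MAMI, a membrane protein gene named for induction by mannitol, had 1.15, and AT5G05400, of the NB-LRR resistance gene type, had 1.60.

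Genes for nucleic acid binding and processing numbered 8. APTX, aprataxin, which removes adenylate from DNA ends left by failed ligation, was at 0 on 4 WT arrays and at most 0.00245 on the others, against 0.230 to 0.517 in psan with a median of 0.376. Because only WT arrays 1 and 3 were above 0, its fold is not fixed, with a log2 fold change of 3.22 when WT array 3 was left out, 7.74 when WT array 1 was, and 8.52 with zeros kept. AT2G47680, a helicase family gene, was the dimmest of the 64 in psan, with 0.0761 to 0.133 and a median of 0.116, and at 0 to 0.0323 in WT. Its log2 fold change of 3.82 was 2.71, 5.29 and 4.47 without WT arrays 3, 5 and 6, and 4.90 with zeros kept. AT3G15140, an exonuclease family gene, had the narrowest rank gap, 1 rank of 3439. It was also the 1 gene of the 64 whose intensities overlapped, with 0 to 0.0634 in WT and 0.0603 to 0.315 in psan, with medians of 0.0488 and 0.152. On the log2 scale its fold change of 1.21 ± 0.37 (SE) was 2.36 with zeros kept.

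The other 5 genes of this group had log2 fold changes from 0.86 to 1.41. They were the RNA recognition motif genes AT2G28540 (1.41) and AT4G09040 (1.20), AT4G03090, the homeobox gene NDX (1.08), AT3G25840, a protein kinase of the splicing-associated PRP4 type (0.94), and the C2H2 zinc finger gene AT5G61470 (0.86). For all 5 the WT and psan intensities did not overlap, which was in part fixed by the rule. With the probe number corrected, AT2G28540 had 0.79, and it, AT4G03090 and AT5G61470 no longer met the rank condition. AT4G03090 had 1.96 with zeros kept.

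No role is given here for 21 genes. The brightest was AT4G35660, with 5.97 to 7.61 in psan and a median of 7.15. In WT it had pair means of 0.0184 for arrays 1 and 2, 1.55 for 3 and 4 and 3.11 for 5 and 6. Its log2 fold change of 3.53 ± 1.01 (SE) was 2.68 without WT array 2, 2.93 without WT array 1 and 1.76 without both. AT3G52070 had 1.69 to 2.06 in WT, with a median of 1.80 and the smallest coefficient of variation of the 64 in WT, 7.28%, and 2.71 to 6.01 in psan, with a median of 4.48. AT1G50880 had 0.951 to 1.55 in WT, with a median of 1.20, and 2.12 to 2.71 in psan, with a median of 2.37. A log2 fold change of 0.84 became 0.32 with the probe number corrected.

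AT3G60590 was at 0 on 3 WT arrays and at most 0.0819 on the others, against 0.305 to 0.633 in psan with a median of 0.428. Here the log2 fold change was 2.86 ± 0.46 (SE), or 2.22 without WT array 4 and 5.5 with zeros kept. A further probe that lists this gene among 3 had means of 0.00927 in WT and 0.0228 in psan. AT1G27610 had 0.00525 to 0.0562 in WT, with a median of 0.0376, and 0.336 to 0.459 in psan, with a median of 0.363. AT5G46560 had 0 to 0.349 in WT, with a median of 0.222, and 1.64 to 2.32 in psan, with a median of 1.77. It was at 0 on 1 WT array, and the log2 fold change was 2.77 ± 0.20 (SE), or 3.71 with zeros kept. The others without a role had values from 0.71, for AT2G44760, to 2.07, for AT5G41960, which was 1.45 and 2.70 when WT array 5 or 6 was left out, 1.41 with the probe number corrected and 4.56 with zeros kept. They were AT3G19120 (1.86), AT3G06870 (1.77), AT5G27560 (1.66), AT1G51080 (1.62), AT5G42680 (1.5), AT1G72020 (1.47), AT2G32470 (1.28), AT1G76220 (1.16), AT3G61870 (1.16), AT3G20680 (1.14), AT3G44570 (0.90), AT5G17280 (0.81) and AT3G16760 (0.80). AT2G32470 had 0.56 with the probe number corrected, where it no longer met the rank condition, and 2.78 with zeros kept. With zeros kept AT1G51080 had 2.51 and AT3G20680 had 1.83, and without WT arrays 1 and 2 AT3G06870 had 1.14. AT5G42680 had a further probe, shared by 3 genes, with a log2 fold change of 0.11.

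At the edge of the rank condition, the 3 genes just inside were AT3G15140, AT5G17280 and AT3G16760, with gaps of 1, 4 and 5 ranks. AT5G17280 had 0.0877 to 0.231 in WT and 0.297 to 0.513 in psan, with medians of 0.159 and 0.430. AT3G16760 had 0.0807 to 0.301 in WT and 0.373 to 0.771 in psan, with medians of 0.257 and 0.502. The 3 probes just outside were those of CML41, AT4G31530 and AT4G24930, with gaps of 0, -6 and -7 ranks. CML41, a calmodulin-like gene, had 0 to 0.127 in WT and 0.165 to 0.267 in psan, and so did not overlap in intensity. AT4G31530 was much brighter, with 23.6 to 46.8 in WT and 29.8 to 84.5 in psan. The limit on the mean psan intensity left out none of the probes that met the rank condition, and the lowest means inside it were 0.110, 0.125 and 0.158, of AT2G47680, AT3G22150 and AT3G15140.

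As a description over few arrays that all genes share, the median correlation between any 2 of the 49 genes above 0 on all arrays was -0.0092 over the 6 psan arrays and 0.039 over the 6 WT arrays, against -0.0021 and -0.0035 for the 428 such probes with 1 symbol. The pair of psan arrays with the highest mean rank was 3 and 4 for 26 genes, 5 and 6 for 20 and 1 and 2 for 18, or 40.6%, 31.3% and 28.1%, against 36.7%, 31.9% and 31.4% of all probes with 1 symbol. In WT the lowest pair was 1 and 2 for 35 of the 64 genes, or 54.7%, against 39.2% of all probes with 1 symbol. The means of the highest and lowest psan pair differed by 1.40-fold at the median and over 1.5-fold for 24 genes. They differed by 3.19-fold for AT3G15140, with means of 0.234, 0.0733 and 0.167 for arrays 1 and 2, 3 and 4, and 5 and 6, and by 2.31-fold for AT4G09620.

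The coefficient of variation of the genes had a median of 20.4% over the psan arrays and 48.8% over the WT arrays, against 43.5% and 50.6% for all probes with 1 symbol. Genes were chosen for separated groups, so these spreads were in part fixed by the rule. AT1G35510 had the smallest spread in psan, 7.04%, and AT3G15140 the largest, 56.6%.

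All 64 genes matched a locus of the RefSeq gene table. They lay on all nuclear chromosomes, with 12 of 173 probes with 1 symbol on chromosome 1, 8 of 124 on chromosome 2, 17 of 130 on chromosome 3, 9 of 120 on chromosome 4 and 18 of 143 on chromosome 5. The closest 2, AT1G50880 and AT1G51080, were 21 genes apart.

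Lists of photosynthesis and stress genes held 0 of the 64. The rule named probes to leave out, so this is partly fixed by the choice of genes. Through a probe with 1 symbol, 1 of 13 photosystem I subunit genes was measured (PSAN, called lower), 3 of 15 photosystem II genes (PSB27 called higher, PSBW and PSBY not called), 2 of 10 Calvin cycle genes (SBPASE called lower, PRK not called), 1 of 13 antioxidant genes (NTRC, not called), 1 of 19 tetrapyrrole synthesis genes (CHLM, not called) and 1 of 19 genes of plastid gene expression (CRR21, called higher). Of 9 high light and oxidative stress genes, 0 were measured. These calls are by limma at an adjusted p under 0.05 over all probes.

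All 15 genes with the widest rank gaps still met the rank condition with the probe number corrected, as did OTP70, MAMI, AT4G35660, AT3G52070 and AT4G39760. Over the 64 genes, log2 fold changes with that correction ran from 0.11 to 5.66, and none turned negative under any of the alternatives run. The alternatives refit the contrast that chose the genes, so these outcomes were in part fixed by the choice.

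**Figure D5:**
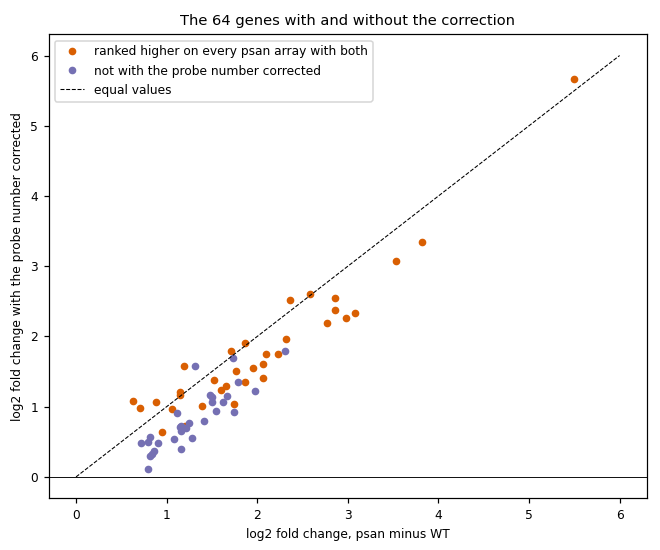
Log2 fold change, psan minus WT, of the 64 genes without (horizontal) and with (vertical) a correction for the probe number, with a dashed line of equal values. The 34 genes that met the rank condition with both are marked apart from the others, and all corrected values lie above 0, from 0.11 to 5.66.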

How the data were processed

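Deposited were intensities, linear and 1 per probe and array. Their scaling, background correction and normalisation by the authors are not stated in the sources used here. Array medians were not equal. The median log2 intensity above 0 lay between -2.88 and -2.27 on the WT arrays and between -1.89 and -1.68 on the psan arrays. Every psan array thus had a higher median above 0 than every WT array. As all array maxima lay at about 100, this is a difference relative to the brightest probe of each array. Statements that WT and psan intensities did not overlap use the values as deposited and so include this difference. For the 64 genes such separation was also in part fixed by the rule. Groups and sample numbers came from the sample titles. Probes were named from the platform annotation (692 with 1 gene symbol, 870 with several, 1877 unnamed here) and matched to the RefSeq TAIR10.1 gene table, for names and gene order only. That table names 5 of the 64 by a symbol other than the locus tag. The gene families of the other loci are background knowledge.

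Ranks used the deposited values. Fold changes are from limma 3.58.1 in R 4.3.3 (lmFit, eBayes, two-sided, psan minus WT) on quantile-normalised log2 values with zeros left out array by array, with Benjamini-Hochberg adjustment and a threshold of 0.05. A fold change was had for 3376 probes, and 3371 had residual degrees of freedom and were tested. Standard errors are from this fit, with variances moderated by eBayes. They treat the arrays as independent, so the likeness within pairs of sample numbers is left out of them. The fit was tested on simulated data. A gene at 0 on some WT arrays is therefore compared with its other WT arrays alone. Probe-number correction removed medians of rows and columns of 12 numbers within a set period of 288 from each array.

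Given in full were the 15 genes with the widest rank gap, the 10 with the highest psan mean and those at the limits of the rule. The genes, lists and alternatives were chosen with earlier results of these data known, and roles were grouped after the members were seen. A grouping by descriptions in the gene table and a search of promoters were planned, and neither was run here. Same-numbered arrays of WT and psan had correlations of -0.155 to 0.228, so the numbers were not used as pairs. Figures were drawn with matplotlib 3.10.9.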

Additional observations from a re-analysis of the deposited data

Results flagged for a closer look

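Of 62 groups of 6 arrays among the genes given in full and those just outside the limits, 3 held an array far from the others, where chance gives about 3.1. The intensity of AT1G27610 on psan array 4 was 0.459, with the next at 0.381, a gap of 0.636 of the group's range. That of APTX on WT array 3 was 0.00245, with the next at 0.000738, a gap of 0.698. That of ATSIK on psan array 1 was 2.03, with the next at 1.64, a gap of 0.751. In these 3 genes every psan intensity lay above every WT intensity, which was in part fixed by the rule and is no check on these arrays.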

How the results depend on the processing

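The count of 64 genes became 110 with averaged pairs, a looser condition of 3 against 3, which 16.4% of all probes met. Correcting for the probe number gave 46, of which 34 were among the 64. With that correction 7.44% of all probes met the rank condition, against 8.9% without it. The count was 57 with ranks over probes with 1 symbol alone, 60 with a lowest mean of 0.2 and 64 with 0.05. Leaving out each array in turn gave 66 to 73 genes, and 9.28% to 10.2% of all probes. All 64 were always among the genes kept, as leaving out an array cannot narrow a rank gap. The 484 probes called higher became 83 with averaged pairs, 273 with the pair as a random block, 753 as deposited and 286 at an adjusted p under 0.01, and 425 to 471 with each array left out. The replicate number as a block gave 453, and a median of 1.51 over the 64 genes. That median was 1.36 with median centring, 1.68 with an offset and zeros kept, 1.16 with the probe number corrected, 2.03 as deposited, 1.24 without WT arrays 1 and 2, and 1.39 to 1.55 with each array left out. As deposited, the median over all probes moved from -0.015 to 0.46, while AT4G39760, AT3G56330, AT2G47680 and AT3G22150 had lower values (0.95, 2.87, 3.32 and 1.65) than after normalisation. The cause of these shifts was not tested. For the 28 genes given in full, 620 of 669 values under alternatives moved by less than the residual spread between arrays, 49 moved by more and 0 turned sign. Their sign was in part fixed by the choice of the genes on this contrast. Some alternatives, such as other eBayes settings, cannot move a fold change, so part of the 620 was fixed in advance. The residual spread was also wide for some genes. AT4G35660 went from 3.53 to 1.76 without WT arrays 1 and 2 and was still counted as moving by less. Leaving out psan arrays 3 and 4 was chosen after seeing the data.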
